A study of Mus musculus with 20 samples.

Results

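In WT mouse embryonic stem cells on the way to neural progenitors, 53 protein-coding genes had a short peak of expression at D2 of differentiation. They were chosen by their WT D0, WT D2 and WT D4 values, as genes with a mean of at least 20 CPM at WT D2 and at least 2.5 times the means of both WT D0 and WT D4. CPM are the estimated counts of a gene divided by the sum of its library, times 1e+06, averaged over 2 libraries. The 53 genes were drawn from 21897 protein-coding genes, 7097 of which reached 20 CPM at WT D2, and from 35975 genes of every kind. The same rule was met by 57 genes, 0.26% of all protein-coding genes, and 4 of them (Dnmt3a, Dnmt3b, Otx2 and Lef1) belong to a set of 12 genes of early differentiation that the rule leaves out. The peak in WT is therefore how the genes were found and is given below as a description with no test.

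Embryonic stem cells that lose LIF leave the naive state and pass through a formative or primed state, which resembles the epiblast of the embryo just after implantation, before they take up a germ layer fate. In that passage naive genes are shut off, de novo DNA methylation machinery is made, and factors such as Otx2 act together with Pou5f1 at new enhancers. Neural fate is then reached in N2B27, a serum-free medium without factors that hold cells in pluripotency. The 53 genes held a wider set of functions than this core: transcription factors, enzymes against oxidative stress, epithelial genes, muscle and other cytoskeletal genes, and kinases and other signalling proteins.

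The cells were of the line ES-E14TG2a, in TKO and WT genotypes. The labels define neither the TKO genotype nor whether it is 1 clone. Stem cells in serum and LIF gave the groups TKO D0 and WT D0. Cells seeded on laminin in N2B27 medium gave TKO D2, TKO D4, TKO D6 and TKO D8, and WT D2, WT D4, WT D6 and WT D8. Each of the 10 groups had 2 biological replicates, for 20 stranded libraries of polyadenylated RNA with 26015282 to 38074768 estimated counts. Dnmt1, the maintenance DNA methyltransferase, stood at 75.4 ± 0.0461 CPM in TKO and 435 ± 1.95 CPM in WT at D2 (mean ± SD, n = 2). Dnmt3b, a de novo methyltransferase, stood at 105 ± 3.65 CPM in TKO and 1254 ± 83.5 CPM in WT at D2. The WT D0 replicates lay furthest apart, by a chi-square over degrees of freedom that reached 29.5, where the other groups gave 2.98 to 11.3. Since WT D0 enters the rule, the choice was repeated without each of its libraries: 51 genes met the rule without replicate 1 and 56 without replicate 2.

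RefSeq promoters on GRCm38.p6, from 250 bases before to 50 bases after a start site, were matched to 40 of the 53 genes (57 promoters). Of 8 motifs searched on both strands, chosen with the values known, the octamer ATGCAAAT is shown because POU factors such as Pou5f1 and Pou3f1 bind it and because Pou3f1 is itself one of the 53. It stood in 7.02% of these promoters, those of Pim2, Gadd45g, Sned1 and Capn3, and in 1.56% of 20123 promoters of protein-coding genes. The lines give 120 bases on the plus strand, the coding strand of these 4 genes, with the octamer or its reverse complement in capitals. Pim2 lies at chrX:7878084-7878203, Gadd45g at chr13:51846552-51846671, Sned1 at chr1:93235736-93235855 and Capn3 at chr2:120476789-120476908.
Pim2: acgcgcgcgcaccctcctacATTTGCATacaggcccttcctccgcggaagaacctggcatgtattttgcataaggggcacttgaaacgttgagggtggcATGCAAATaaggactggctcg
Gadd45g: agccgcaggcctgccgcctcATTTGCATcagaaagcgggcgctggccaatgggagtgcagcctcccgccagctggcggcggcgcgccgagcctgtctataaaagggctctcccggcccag
Sned1: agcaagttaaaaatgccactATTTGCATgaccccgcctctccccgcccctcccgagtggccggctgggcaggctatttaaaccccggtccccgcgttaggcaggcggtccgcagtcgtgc
Capn3: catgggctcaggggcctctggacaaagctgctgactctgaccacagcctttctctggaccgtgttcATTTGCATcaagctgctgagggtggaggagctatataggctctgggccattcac
The first octamer of Pim2 begins 202 bases before the start site, that of Gadd45g 103, that of Sned1 141 and that of Capn3 54. Another Capn3 promoter, at chr2:120463343-120463642, holds no octamer. Pim2 holds 2 octamers. The other motifs are given as their share of these promoters against that of all promoters. The core of the antioxidant response element, TGACNNNGC, stood in 14% against 13.1%, the E-box CAGCTG in 22.8% against 15.7%, the bicoid-class motif TAATCC in 7.02% against 6.44%, and the Tcf and Lef motif CTTTGAA in 3.51% against 4.49%. The GC box GGGCGG stood in 49.1% against 47.7%, TATAAA in 10.5% against 12.2%, and the Grainyhead palindrome AACCGGTT in 0% against 0.189%. TGACNNNGC is the element through which Nrf2 acts on redox genes. No match stood in the promoters of the other redox enzymes, Nqo1, Cbr3, Akr1b8 and Gpx1. Gadd45g, Hes6, Lmo7, Pdgfc, Sned1, Trp73 and Vrtn, which are not redox enzymes, also had a match. The promoter of Gclm, at chr3:122245403-122245522 on the plus strand, holds 1 on the other strand (capitals).
Gclm: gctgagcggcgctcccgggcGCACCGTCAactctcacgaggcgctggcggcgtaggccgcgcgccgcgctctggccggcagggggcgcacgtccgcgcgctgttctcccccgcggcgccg
A match is a run of letters in the window and not a mapped binding site. The ratio of observed to expected CpG had a median of 0.555 in the promoters of the 53 genes and 0.588 in all promoters.

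Measured per length in TPM at D2, the redox enzyme Gpx1 (glutathione peroxidase 1) was the highest of the 53 genes, at 579 TPM in TKO and 692 TPM in WT. In the order of WT D2, the next were G3bp2, a stress granule protein (324 TPM in TKO and 405 TPM in WT), Gclm, the modifier subunit of the enzyme that starts glutathione synthesis (322 and 317 TPM in the same order), and Pim2, a survival kinase (323 and 252 TPM). Then came, again by WT D2, Sssca1, Snrpn, Car2, Calca, Gadd45g, Myrf, Nqo1 and Capn3, the last at 74.7 TPM in TKO and 81.5 TPM in WT. Ttn, titin of the sarcomere, was the lowest at 1.88 TPM in TKO and 2.06 TPM in WT. Its transcript of 81999 bases held 99.8% of the TPM of Ttn at TKO D2 and 98% at WT D2. The most abundant transcript at D2 was the same in both genotypes for 50 of the 53 genes.

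In WT, the 53 genes together summed to 1296.1 and 1444.4 CPM at D0, 5402.8 and 5255.1 CPM at D2, 1152.8 and 1224.0 CPM at D4, 998.4 and 1018.2 CPM at D6, and 1586.0 and 1569.3 CPM at D8. The median gene stood at 25.5% of its D2 level at D0 and at 16.3% at D4. Entry into the peak was steepest for Ccno, a cyclin of multiciliated cells, Wt1, a zinc finger factor of kidney and gonad, and Vrtn, which affects the number of vertebrae in pigs. Their D2 levels were 88.5, 75.5 and 61.6 times their D0 levels. Exit was steepest for Capn3, a calcium-dependent protease of muscle, at 77.5 times its D4 level. At the edge of the rule, the genes just inside the fold of 2.5 were G3bp2 at 2.52, Pdgfc at 2.52 and Wdr47 at 2.55, and those just outside were P3h4 at 2.40, Nexmif at 2.40 and Mt2 at 2.32. By level, Trp73 at 20.2 CPM, Accsl at 20.6 CPM and Pdgfc at 21.4 CPM were just inside, and Lrrk2 at 19.9 CPM, Tnfsf11 at 19.6 CPM and Cilp2 at 18.8 CPM just outside.

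**Figure D1:**
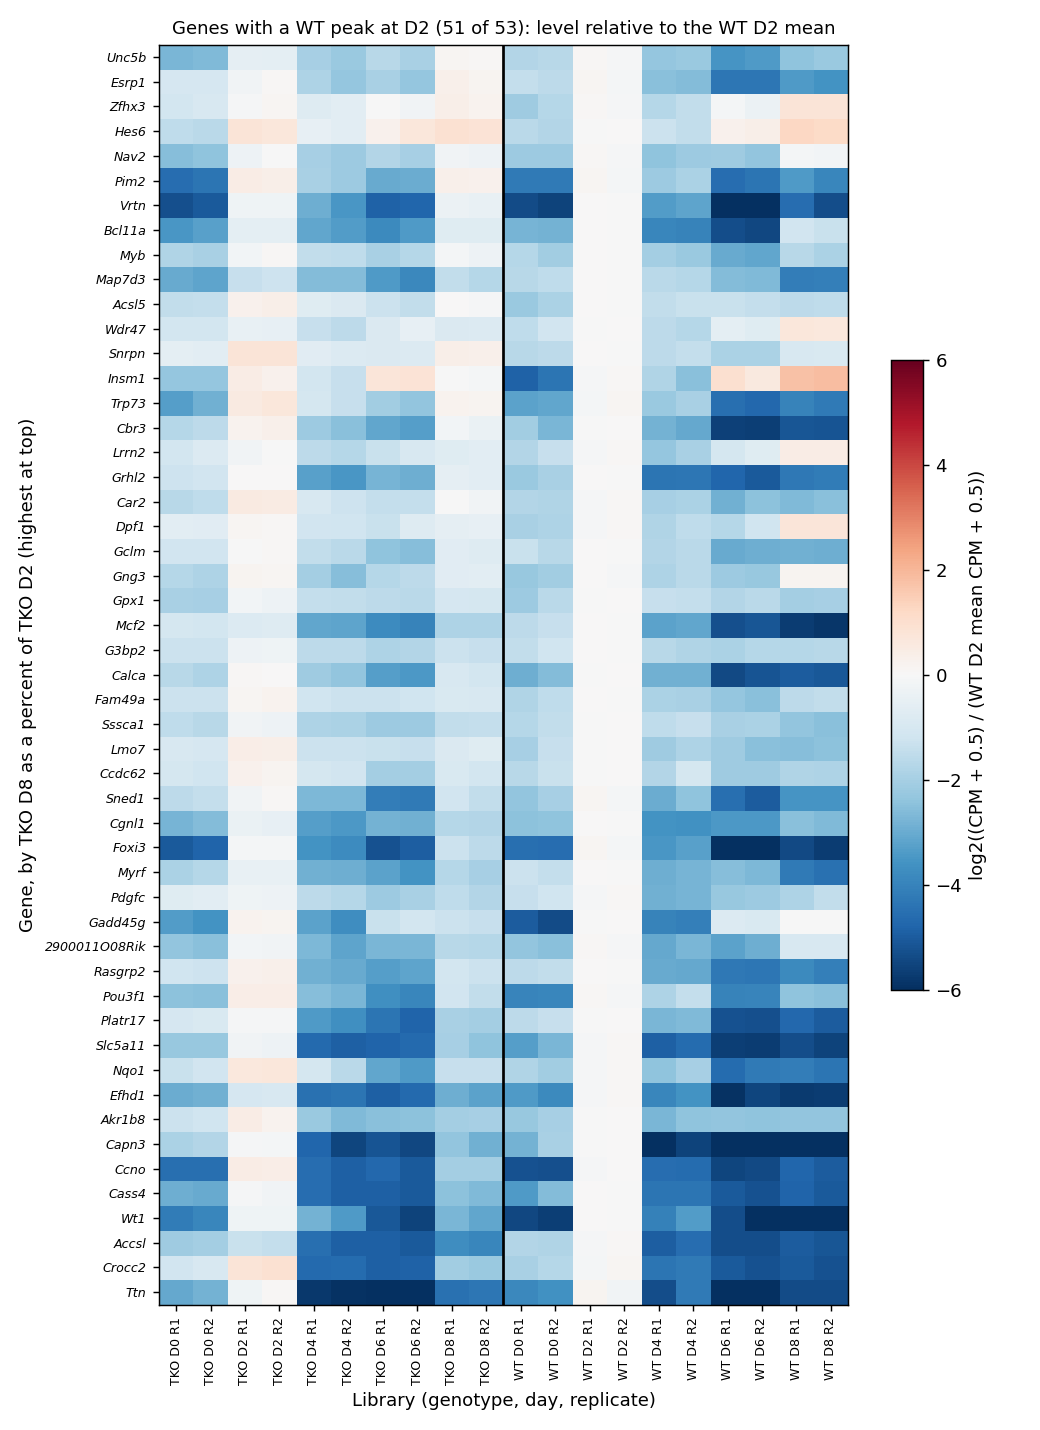
Level of 51 of the 53 genes (rows) in each of the 20 libraries (columns, TKO left and WT right, D0 to D8), as log2 of (CPM + 0.5) over (WT D2 mean CPM + 0.5). Rows run by the TKO D8 level as a percent of TKO D2, from Unc5b at 160% down to Ttn at 4.64%; the WT D2 columns are near 0 by construction, the TKO D2 columns are near them, and the TKO D8 columns are paler than the WT D8 columns in most rows.

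Whether the peak also occurs in TKO cells was asked in libraries that the rule had not used. All 53 genes were higher at TKO D2 than at TKO D0 (edgeR quasi-likelihood test, adjusted p under 0.05), where 26.6% of 18555 genes tested were higher, and their median log2 fold change was 1.83 beside 0.00 over all genes. None was lower by edgeR or by DESeq2, where 26.9% of all genes were lower. All 53 were lower and none higher at TKO D4 than at TKO D2, where 30.3% of all genes were lower and 31.6% higher, with a median of -2.48 beside 0.005. These comparisons share the TKO D2 libraries. In bulk RNA, a change in the number of cells that express a gene and a change in its RNA per cell cannot be told apart, here and in what follows.

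The steepest entry in TKO was that of Ccno, with 44.2 and 43.01 CPM at TKO D2 against 0.926 and 0.912 CPM at TKO D0 (log2 fold change 5.52 ± 0.1503, adjusted p = 4.51e-14). Foxi3, a forkhead factor of the ectoderm that forms ear and branchial placodes, had 34.99 and 34.1 CPM at TKO D2 against 0.671 and 0.878 CPM at TKO D0 (log2 fold change 5.44). Vrtn had 62.1 and 63.04 CPM at TKO D2 against 1.44 and 1.82 CPM at TKO D0 (log2 fold change 5.22). For these 3 genes both D2 libraries lay far above both D0 libraries. Pim2, with 432 and 412 CPM at TKO D2 against 13.03 and 14.9 CPM at TKO D0, and Trp73, the p53 relative p73, with 30.03 and 33.1 CPM at TKO D2 against 1.63 and 2.32 CPM at TKO D0, followed at log2 fold changes of 4.88 and 3.96. The smallest increases were those of Mcf2, a guanine nucleotide exchange factor of the Dbl family (log2 fold change 0.23 ± 0.0734, adjusted p = 0.0135), and Pdgfc, a growth factor (log2 fold change 0.38 ± 0.123, adjusted p = 0.0148). Mcf2 had 55.6 and 55.7 CPM at TKO D2 against 46.9 and 45.5 CPM at TKO D0, and Pdgfc had 17.9 and 17.4 CPM at TKO D2 against 12.9 and 13.5 CPM at TKO D0. Both were thus well expressed in TKO before differentiation began.

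The exit at TKO D4 was steepest for Crocc2, a relative of the ciliary rootlet protein rootletin, which had 0.514 and 0.561 CPM at TKO D4 against 44.5 and 48.5 CPM at TKO D2 (log2 fold change -6.51 ± 0.162, adjusted p = 2.28e-15). Ttn had 1.63 and 1.45 CPM at TKO D4 against 98.1 and 123 CPM at TKO D2 (log2 fold change -6.23). Ccno, Cass4, a scaffold of the Cas family, and Slc5a11, a sodium-coupled inositol transporter, also fell below 1 CPM in both TKO D4 libraries, with log2 fold changes of -5.94, -5.71 and -5.54. Zfhx3, a zinc finger homeobox factor, fell least (log2 fold change -0.81 ± 0.114, adjusted p = 7.43e-06), to 28.6 and 31.3 CPM at TKO D4 against 46.6 and 52.8 CPM at TKO D2.

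Read with the same limits of 20 CPM and 2.5-fold, 36 of the 53 genes (67.9%) met the rule in TKO, as did 0.292% of all protein-coding genes and 0.879% of those with at least 20 CPM at TKO D2. The 17 that did not included Bcl11a, Grhl2, Acsl5, Lrrn2, Pdgfc, Gclm, G3bp2, Dpf1, Mcf2, Zfhx3, Wdr47, Esrp1, Gpx1, Hes6, Accsl and Platr17. D2 was the day with the highest mean for 48 of the 53 genes in TKO and for 46 in WT, and D8 was that day for 4 in TKO and 7 in WT. In WT the rule had already put D2 above D0 and D4, so the counts of the genotypes are not alike.

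At the peak itself TKO and WT are set side by side with no test, because WT D2 chose the genes. The ratio of TKO D2 to WT D2 mean CPM had a median of 0.962 and lay within 1.5-fold of 1 for 44 of the 53 genes, a smaller share than the 95.2% of protein-coding genes with at least 20 CPM at WT D2. The highest ratios were those of Crocc2 at 1.82, Snrpn at 1.71, Hes6 at 1.65, Nqo1 at 1.59 and Trp73 at 1.56. Snrpn, an imprinted gene expressed from the paternal allele that shares 34.5% of its 31-base sequences with another gene, had 412 and 402.5 CPM at TKO D2 and 244 and 232 CPM at WT D2, and stood higher in the TKO libraries of D0 as well, at 159.7 and 154 CPM in TKO and 74.1 and 79.2 CPM in WT. The lowest ratios were those of Accsl at 0.367, Map7d3 at 0.396, Efhd1 at 0.505, Mcf2 at 0.574 and Unc5b at 0.668. Map7d3, a microtubule-associated protein, had 26.6 and 29.6 CPM at TKO D2 and 71.4 and 70.6 CPM at WT D2. Efhd1, a calcium-binding protein of mitochondria, had 40 and 41.5 CPM at TKO D2 and 77.1 and 84.1 CPM at WT D2.

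Outside the peak more of the genes stood apart between genotypes. The ratio of TKO to WT was above 1 for 38 of the 53 genes at D0, with a median of 1.34 beside 0.968 over protein-coding genes of at least 20 CPM, and for 37 at D4, with a median of 1.16 beside 0.998. At D0 it was highest for Insm1, a zinc finger factor of neurogenic and endocrine cells, which had 7.71 and 7.77 CPM at TKO D0 and 0.933 and 1.44 CPM at WT D0. At D4, Grhl2 had 6.901 and 5.89 CPM at TKO D4 and 2.86 and 2.99 CPM at WT D4. These days chose the genes, since low WT values at D0 and D4 were part of the rule, so no test is given.

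On D6, a day the rule did not use, most of the genes were low in both genotypes, at a median of 13.1% of the D2 level in TKO and 8.32% in WT. The WT percentage is taken of a D2 level that helped choose the genes. Between genotypes, 30 of the 53 genes were higher in TKO and 4 were lower, beside 20.9% and 20.3% of all genes tested, with a median log2 fold change of 0.71 (all genes 0.00). Esrp1, which directs splicing in epithelial cells, had 16.2 and 12.1 CPM in TKO and 2.60 and 2.66 CPM in WT (log2 fold change 2.43 ± 0.189, adjusted p = 1.77e-08). Grhl2, a Grainyhead factor that keeps cells epithelial, had 9.82 and 8.91 CPM in TKO and 2.09 and 1.64 CPM in WT (log2 fold change 2.32 ± 0.139, adjusted p = 5.96e-10). So both epithelial regulators were several-fold higher in TKO at D6, with no overlap between the libraries. Unc5b, a netrin receptor, and Mcf2 were higher in TKO by log2 fold changes of 1.75 and 1.53.

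The 4 genes lower in TKO at D6 were Map7d3 (log2 fold change -1.06 ± 0.1299, adjusted p = 4.55e-06), Myrf, the factor that drives myelin genes in oligodendrocytes (log2 fold change -0.75), Gadd45g, a stress and growth arrest protein (-0.38), and Sssca1 (-0.26). Myrf had 33.7 and 25.9 CPM in TKO and 53.3 and 47 CPM in WT at D6. The calls of Gadd45g and Sssca1 were both lost without TKO D6 replicate 1, when 2 genes were lower. Gadd45g was also lost without WT D6 replicate 1, and Sssca1 without WT D6 replicate 2 or TKO D6 replicate 2. Sssca1 is uncertain besides, since 50.8% of its 31-base sequences also occur in another annotated gene entry.

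At D8 the genes of the D2 peak rose again in TKO cells. Summed over the 53 genes, the TKO D8 libraries held 3097.6 and 2875.4 CPM against 1243.5 and 1266.7 CPM at TKO D6, while the WT D8 libraries held 1586.0 and 1569.3 CPM against 998.4 and 1018.2 CPM at WT D6. In TKO, 50 of the 53 genes were higher at D8 than at D6 and 1 was lower, beside 25.5% and 24.5% of all genes tested, with a median log2 fold change of 1.94 (all genes 0.04). In WT, 26 were higher and 7 lower, beside 26.6% and 30.4%, with a median of 0.75 (all genes 0.00). Set against WT at D8, 42 genes were higher in TKO and 8 lower, beside 35.8% and 31.8%, with a median of 2.47 (all genes 0.04). The comparisons of TKO D8 with TKO D6 and with WT D8 share the TKO D8 libraries.

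**Figure D2:**
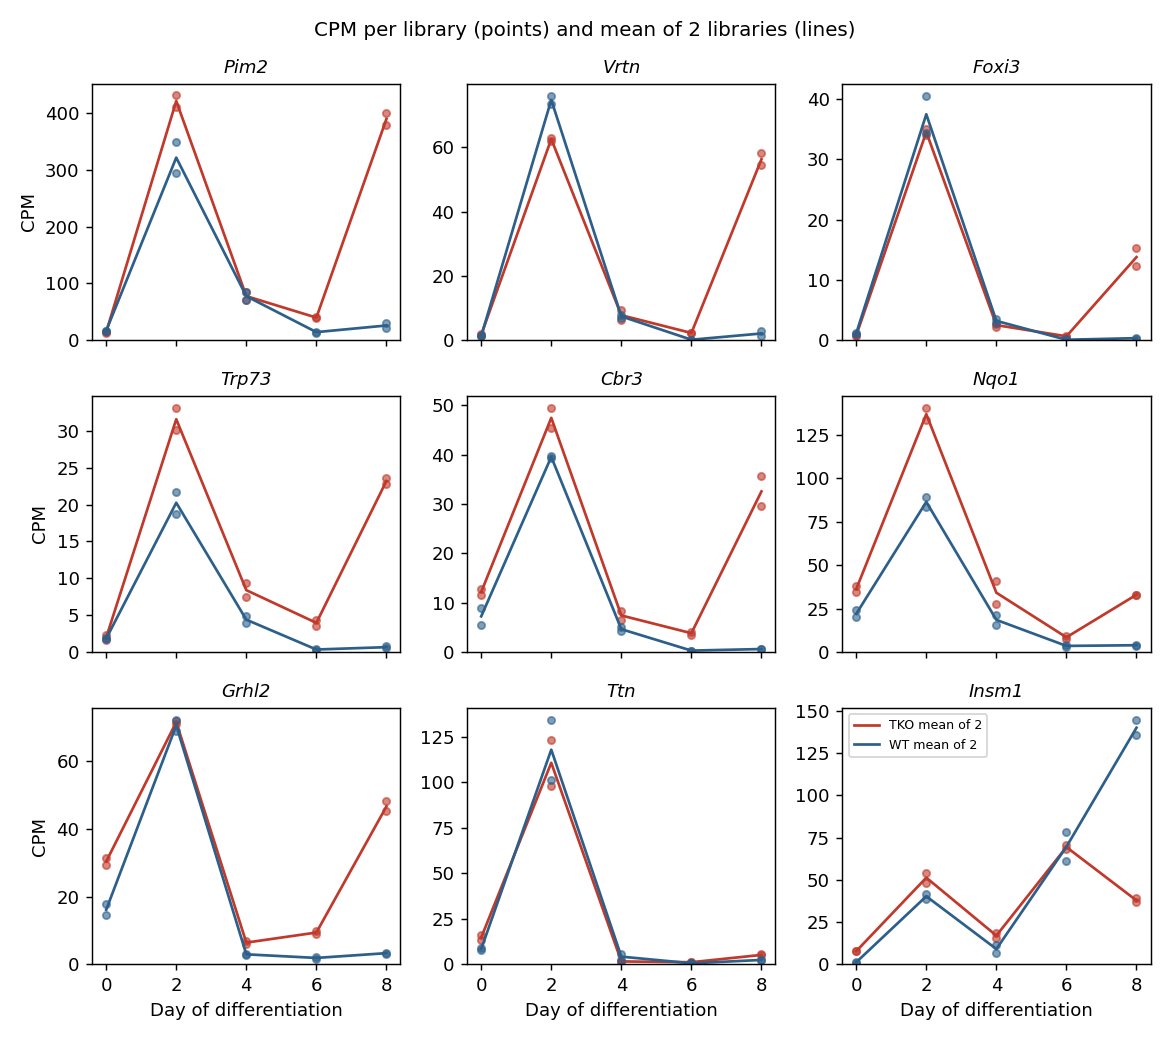
CPM of 9 of the 53 genes by day of differentiation, in TKO (red) and WT (blue); points are the 2 libraries of a group and lines join their means. Pim2 had 432 and 412 CPM at TKO D2 and 400.5 and 379.9 CPM at TKO D8, whereas WT stood at 30.3 and 21.1 CPM at D8; Ttn had 4.86 and 5.39 CPM at TKO D8, and Insm1 was higher in WT at D8.

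Expressed against each genotype's own peak, the median gene stood at 47.2% of D2 at TKO D8 and at 13.3% of D2 at WT D8. WT D2 helped choose the genes and TKO D2 did not, so these percentages are a description with no test. At least 50% of the D2 level was reached by 24 genes in TKO and 11 in WT, and less than 10% was found for 2 genes in TKO, Ttn among them, and 26 in WT. Pim2 came back to 400.5 and 379.9 CPM at TKO D8 against 39.2 and 39.96 CPM at TKO D6 (log2 fold change 3.35 ± 0.136, adjusted p = 7.17e-12). Vrtn came back to 58.1 and 54.5 CPM at TKO D8 against 2.14 and 2.26 CPM at TKO D6 (log2 fold change 4.73 ± 0.190, adjusted p = 6.67e-12), the largest increase of the 53 genes. These are 92.5% and 89.98% of their TKO D2 levels, where the WT D8 levels were 7.97% and 2.73% of WT D2. Vrtn also rose in WT, to 2.72 and 1.365 CPM at D8 against 0.0634 and 0.136 CPM at D6 (log2 fold change 4.19 ± 0.523, adjusted p = 2.51e-06). The difference between genotypes in this change of Vrtn did not pass (interaction test below, adjusted p = 0.681). Crocc2, Ccno and Slc5a11 rose by log2 fold changes of 3.86, 3.59 and 3.39 between TKO D6 and TKO D8, but to 11.6%, 17.2% and 24.8% of TKO D2. Between the genes the return ran from 4.64% of TKO D2 for Ttn to 160.3% for Unc5b, which passed its own peak. Without TKO D6 replicate 1, 2 genes rather than 1 were lower at TKO D8 than at TKO D6.

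**Figure D3:**
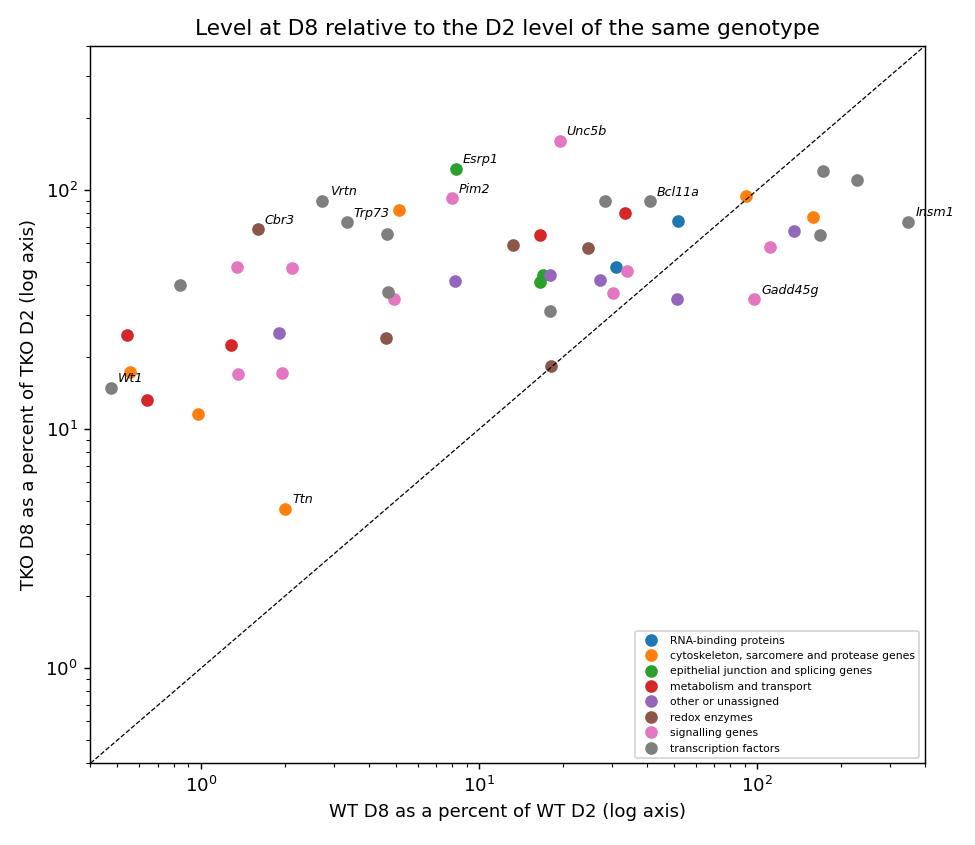
D8 level as a percent of the D2 level of the same genotype, TKO on the vertical and WT on the horizontal axis (both log), one point for each of 51 genes, coloured by role, with the dashed line marking equal percentages. Cbr3 stood at 68.6% in TKO and 1.595% in WT, while Insm1 stood at 73.7% in TKO and 348% in WT, right of the line. The WT D2 level helped choose the genes and the TKO D2 level did not.

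Ordered by role, with roles assigned from general knowledge, 9 of the 13 transcription factors were higher in TKO than in WT at D8 and 3 were lower. Foxi3 had 15.2 and 12.3 CPM in TKO and 0.389 and 0.239 CPM in WT at D8 (log2 fold change 5.61 ± 0.255, adjusted p = 3.35e-12). Trp73 had 23.6 and 22.7 CPM in TKO and 0.7696 and 0.5799 CPM in WT at D8 (log2 fold change 5.26 ± 0.204, adjusted p = 4.53e-13), and its TKO D8 mean of 23.2 CPM was above the WT D2 mean of 20.2 CPM. Grhl2 had 48.1 and 45.2 CPM in TKO and 3.12 and 3.43 CPM in WT (log2 fold change 4.01 ± 0.113, adjusted p = 1.05e-14). In all 3 genes the TKO libraries lay several-fold above the WT libraries. Pou3f1 (Oct6), a POU factor of the primed epiblast and of neural and glial precursors, was higher at D8 than at D6 in both genotypes. It had 72.1 and 57.6 CPM at TKO D8 and 29.9 and 27.5 CPM at WT D8 (log2 fold change 1.36 ± 0.121, adjusted p = 1.86e-08). Myb, a factor of blood progenitors, had 44.8 and 39.2 CPM in TKO and 14.7 and 12.7 CPM in WT at D8. It was higher in TKO (log2 fold change 1.80), as were Wt1 (4.87), Vrtn (4.95), Myrf (2.73) and Bcl11a (0.73), a zinc finger repressor of fetal globin.

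All 5 redox enzymes were higher in TKO at D8. Nqo1, a quinone reductase, had 33.1 and 32.9 CPM in TKO and 4.34 and 3.62 CPM in WT at D8 (log2 fold change 3.23 ± 0.197, adjusted p = 1.29e-10). Cbr3, a carbonyl reductase, had 35.6 and 29.5 CPM in TKO and 0.648 and 0.614 CPM in WT (log2 fold change 5.86 ± 0.242, adjusted p = 1.01e-12). Gclm had 142 and 129.9 CPM in TKO and 30.3 and 29.5 CPM in WT (log2 fold change 2.37 ± 0.0999, adjusted p = 1.29e-12). Libraries of the genotypes did not overlap for any of the 3. Gpx1 was higher in TKO by a log2 fold change of 1.18 and Akr1b8, an aldo-keto reductase, by 0.55. Nqo1, Gclm, Cbr3 and Akr1b8 belong to a list of 31 target genes of Nrf2, the regulator of the antioxidant response, which was written after the values were seen. Of its 29 genes tested, 19 were higher and 5 lower at TKO D2 against TKO D0, 26 higher and 0 lower at TKO D8 against TKO D6, and 26 higher and 1 lower in TKO against WT at D8, with medians of 0.46, 0.82 and 1.59. In the same order, the shares over all genes tested were 26.6% and 26.9%, 25.5% and 24.5%, and 35.8% and 31.8%. Nqo1, Gclm, Cbr3 and Akr1b8 are among the higher genes each time, so these counts are not independent of the choice of genes. Gsta2 and Akr1b7 of that list had no count in the WT D8 libraries.

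The 3 epithelial genes were higher in TKO at D6 and at D8. Esrp1 had 77.5 and 71.1 CPM in TKO and 5.504 and 4.84 CPM in WT at D8 (log2 fold change 4.02 ± 0.159, adjusted p = 5.54e-13), and its TKO D8 libraries lay above its TKO D2 libraries of 54.7 and 66.4 CPM. Cgnl1, the junction protein paracingulin, and Lmo7, which links junctions to actin, were higher in TKO at D8 by log2 fold changes of 1.04 and 1.94. Grhl2 and Esrp1 are also in a list of 20 surface ectoderm and epithelial genes, of which 7 were higher and 10 lower at TKO D2 against TKO D0, with a median of -0.42, so that most of the list did not share the D2 peak of these genes. Of the same list, 18 were higher and 0 lower in TKO against WT at D8, and 18 higher and 1 lower at TKO D8 against TKO D6. The shares over all genes tested were 35.8% and 31.8%, and 25.5% and 24.5%. The list also rose in WT, with 15 higher and 2 lower at WT D8 against WT D6 (all genes 26.6% and 30.4%). By the interaction test below, the D8 over D6 change was more positive in TKO for 8 and less positive or negative for 4, with a median difference of 0.045. Summed over that list, the TKO D8 libraries held 1399.9 and 1439.5 CPM and the WT D8 libraries 399.2 and 408.7 CPM.

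Of the 7 cytoskeletal, sarcomere and protease genes, 5 were higher in TKO at D8 and 1 was lower. Capn3 had 23.6 and 16.3 CPM in TKO and 0.6798 and 0.691 CPM in WT at D8 (log2 fold change 5.04 ± 0.382, adjusted p = 2.21e-09). Ttn had 4.86 and 5.39 CPM in TKO and 2.396 and 2.32 CPM in WT (log2 fold change 1.30). These muscle genes stood at different heights at TKO D8, Capn3 at 17.3% of its TKO D2 level and Ttn at 4.64%. Map7d3 rose to 24.9 and 21.4 CPM at TKO D8 against 6.24 and 4.34 CPM at TKO D6, and fell to 3.59 and 3.72 CPM at WT D8 against 11.4 and 10.7 CPM at WT D6. Nav2, a neuron navigator, rose in both genotypes (log2 fold changes 1.69 in TKO and 1.98 in WT) and did not pass between them at D8 (log2 fold change 0.07 ± 0.09895, adjusted p = 0.528).

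Among 12 signalling genes, 9 were higher in TKO at D8 and 2 lower. Pim2 had 400.5 and 379.9 CPM in TKO and 30.3 and 21.1 CPM in WT at D8 (log2 fold change 4.11 ± 0.142, adjusted p = 1.24e-13). Calca, which encodes calcitonin and the neuropeptide CGRP, had 26.99 and 24.8 CPM in TKO and 1.17 and 1.09 CPM in WT (log2 fold change 4.70 ± 0.159, adjusted p = 9.68e-14). Mcf2 had 26.9 and 26.3 CPM in TKO and 1.39 and 1.23 CPM in WT (log2 fold change 4.52 ± 0.116, adjusted p = 3.41e-15). For these genes the WT level at D8 was 7.97%, 2.13% and 1.35% of WT D2. Unc5b had 65.4 and 64.6 CPM in TKO and 11.03 and 12.6 CPM in WT (log2 fold change 2.64 ± 0.103, adjusted p = 4.61e-13), so that TKO D8 also stood above WT D2, at 63.2 and 58.2 CPM. Ccno had 7.41 and 7.58 CPM in TKO and 0.712 and 0.546 CPM in WT at D8 (log2 fold change 3.74 ± 0.173, adjusted p = 4.14e-12). Rasgrp2, an exchange factor for Rap1 in platelets, and Cass4 were also higher in TKO, by log2 fold changes of 3.30 and 3.66. Fam49a, which binds the GTPase Rac1, differed less, with 33.6 and 33.04 CPM in TKO and 21.2 and 22.5 CPM in WT (log2 fold change 0.79 ± 0.0801, adjusted p = 9.56e-08). Pdgfc, with 6.99 and 6.07 CPM in TKO and 5.63 and 7.27 CPM in WT, did not pass at D8 (log2 fold change 0.20 ± 0.138, adjusted p = 0.211).

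All 5 genes of metabolism and transport were higher in TKO at D8. Car2, carbonic anhydrase 2, had 156 and 139 CPM in TKO and 25 and 27.4 CPM in WT at D8 (log2 fold change 2.68 ± 0.124, adjusted p = 4.31e-12). Slc5a11 had 6.64 and 4.81 CPM in TKO and 0.194 and 0.102 CPM in WT (log2 fold change 5.39 ± 0.326, adjusted p = 1.14e-10). Acsl5, a long-chain acyl-CoA synthetase, had 48.3 and 44.1 CPM in TKO and 15.3 and 16.1 CPM in WT (log2 fold change 1.74 ± 0.0924, adjusted p = 2.21e-11). The libraries were apart in each. Efhd1 and Accsl were higher in TKO by log2 fold changes of 3.32 and 3.05, Accsl at only 1.12 and 0.894 CPM in TKO and 0.162 and 0.102 CPM in WT. Both RNA-binding genes were higher too, Snrpn with 306 and 294 CPM in TKO and 123 and 125 CPM in WT, and G3bp2 with 401 and 368 CPM in TKO and 299 and 303 CPM in WT. Of the 6 genes of other or unassigned function, 4 were higher and 2 lower. Sned1, a protein of the extracellular matrix, had 54.9 and 44.3 CPM in TKO and 10.1 and 10.3 CPM in WT (log2 fold change 2.47 ± 0.177, adjusted p = 1.03e-09), though 19% of its 31-base sequences also occur in other genes, mainly Mterf4. Platr17 had 7.77 and 7.22 CPM in TKO and 0.709 and 0.481 CPM in WT. Ccdc62 had 17.1 and 14.6 CPM in TKO and 8.89 and 8.64 CPM in WT. At D2 a transcript annotated as a retained intron held 87.2% of the TPM of Ccdc62 in TKO and 91.9% in WT.

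At WT D8, 7 of the 53 genes stood above their WT D2 level: Insm1 (348%), Hes6 (229%), Zfhx3 (171.5%), Dpf1 (168%), Wdr47 (158%), Lrrn2 (135.5%) and Gng3 (111%). Insm1 fell to 38.95 and 36.6 CPM at TKO D8 against 67.98 and 70.8 CPM at TKO D6, and was the only one of the 53 genes to fall there (log2 fold change -0.83 ± 0.147, adjusted p = 0.000162). In WT it rose to 135.5 and 145 CPM at D8 against 78.2 and 61 CPM at D6 (log2 fold change 0.88 ± 0.142, adjusted p = 4.49e-05), and TKO was lower than WT at D8 (log2 fold change -1.71 ± 0.147, adjusted p = 1.16e-08). Dpf1, a subunit of the neuronal form of the BAF chromatin remodelling complex, had 16.96 and 17.9 CPM in TKO and 42.4 and 42.4 CPM in WT at D8 (log2 fold change -1.10 ± 0.1504, adjusted p = 4.14e-06). Wdr47, which acts on microtubules in neurons, had 25.4 and 26.2 CPM in TKO and 75.4 and 72.7 CPM in WT (log2 fold change -1.34 ± 0.111, adjusted p = 6.58e-09). All 3 were lower in TKO at D8 with no overlap between libraries, as were Gadd45g (log2 fold change -1.12) and Lrrn2 (-0.95). Gng3, a G protein gamma subunit of neurons whose gene shares 22.8% of its 31-base sequences mainly with its neighbour Bscl2, had 43.9 and 44.2 CPM in TKO and 77.1 and 77.5 CPM in WT (log2 fold change -0.63 ± 0.112, adjusted p = 7.95e-05). Zfhx3 had 61.97 and 57.6 CPM in TKO and 84.9 and 83.8 CPM in WT (log2 fold change -0.32 ± 0.109, adjusted p = 0.0164). Hes6, which promotes neuronal differentiation, did not pass between genotypes at D8 (log2 fold change -0.15 ± 0.106, adjusted p = 0.217), at 84.4 and 78.8 CPM in TKO and 106 and 99.6 CPM in WT.

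Leaving out a predicted gene (log2 fold change 2.09), the largest increases at WT D8 over WT D6 among genes of at least 5 CPM were those of Bcl11a (log2 fold change 5.65 ± 0.223, adjusted p = 4.16e-12), Gng3 (log2 fold change 2.29), Dpf1 (2.10), Nav2 (1.98) and Pou3f1 (1.43). Bcl11a had 12.7 and 11.2 CPM at WT D8 against 0.254 and 0.1703 CPM at WT D6, and 17.5 and 17.5 CPM at TKO D8 against 1.597 and 2.33 CPM at TKO D6. It therefore rose in both genotypes and ended higher in TKO. The genes that fell at WT D8 included Myrf (log2 fold change -1.90 ± 0.125, adjusted p = 9.98e-10), Map7d3 (-1.73), Sssca1 (-0.66), Gpx1 (-0.48) and Acsl5 (-0.31). The call of Acsl5 was lost without WT D6 replicate 1 or WT D8 replicate 1.

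Whether the D8 over D6 change differed between genotypes was tested as an interaction. It was more positive in TKO for 35 of the 53 genes and less positive or negative for 10, beside 25.5% and 24.4% of all genes tested, with a median difference of 1.45 on the log2 scale (all genes -0.015). It shares the D6 and D8 libraries with the comparisons above. The largest positive differences among genes of at least 5 CPM were those of Wt1 (4.16 ± 0.774 SE, adjusted p = 0.000226), Crocc2 (3.98 ± 0.502, adjusted p = 3.73e-06), Map7d3 (3.90 ± 0.185), Myrf (3.48 ± 0.1703) and Capn3 (3.0 ± 0.827). Myrf rose to 94.2 and 78.1 CPM at TKO D8 against 33.7 and 25.9 CPM at TKO D6, and fell to 15.9 and 13.5 CPM at WT D8 against 53.3 and 47 CPM at WT D6. Wt1 had 8.39 and 6.44 CPM at TKO D8 against 1.295 and 0.765 CPM at TKO D6, and 0.291 and 0.273 CPM at WT D8 against 1.02 and 0.238 CPM at WT D6. Without WT D6 replicate 1, the higher of its pair, the difference for Wt1 was 2.78 and did not pass (adjusted p = 0.0631). The largest negative differences were those of Bcl11a (-2.43 ± 0.329), Insm1 (-1.70 ± 0.205), Dpf1 (-1.53 ± 0.226), Wdr47 (-1.33 ± 0.157) and Gng3 (-1.24 ± 0.1695). Among the genes that did not pass were Vrtn (0.54 ± 0.955, adjusted p = 0.681), Foxi3 (2.08 ± 1.162, adjusted p = 0.15) and Slc5a11 (1.99 ± 1.153, adjusted p = 0.166). Vrtn, Foxi3 and Slc5a11 were below 1 CPM in both WT D6 libraries.

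**Figure D4:**
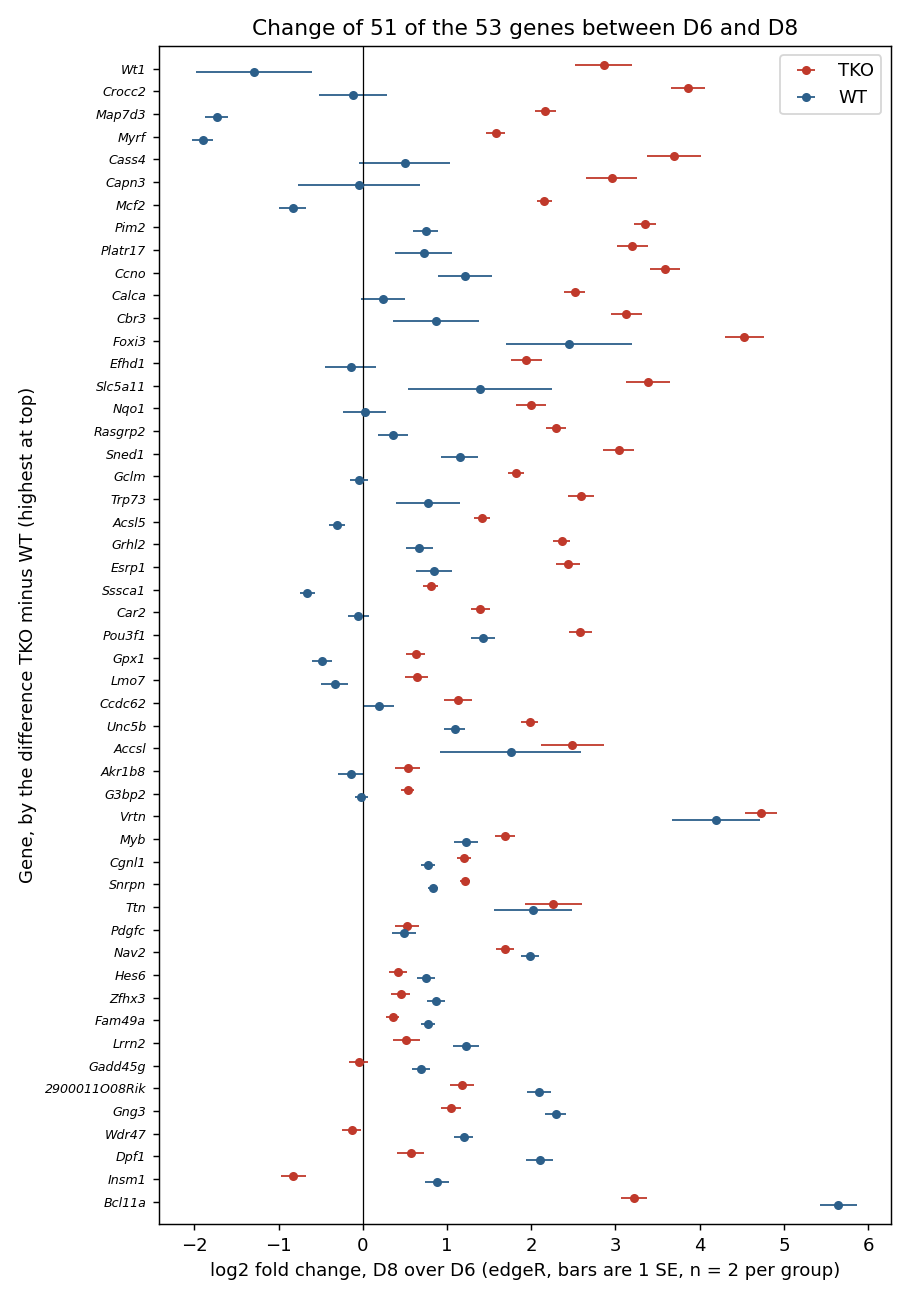
log2 fold change of D8 over D6 for 51 of the 53 genes in TKO (red) and WT (blue), with bars of 1 SE from the edgeR fit, sorted by the difference TKO minus WT. TKO lies right of WT for most genes, from Wt1 at the top, and left of it at the bottom, where Insm1 is at -0.83 in TKO and 0.88 in WT and Bcl11a at 3.22 in TKO and 5.65 in WT.

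Compared with WT cells at their own peak, 8 genes reached or passed the WT D2 mean in TKO at D6 or D8: Unc5b, Trp73, Pim2, Zfhx3, Esrp1, Hes6, Insm1 and Snrpn. For Pim2 the TKO D8 libraries, at 400.5 and 379.9 CPM, lay above the WT D2 libraries, at 349 and 295 CPM. For Insm1 the level was passed at D6, with 67.98 and 70.8 CPM at TKO D6 against 38.9 and 41.6 CPM at WT D2, and WT D6 passed it too, at 78.2 and 61 CPM.

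Lists of pluripotency genes were also compared at D8. Over all genes tested, 25.5% were higher and 24.5% lower at TKO D8 against TKO D6, and 35.8% and 31.8% in TKO against WT at D8. The core and naive lists hold 0 of the 53 genes. Of 36 formative and primed pluripotency genes, 4 of which are among the 53 (Pou3f1, Grhl2, Pim2 and Hes6), 29 were higher and 6 lower at TKO D8 against TKO D6, and 27 higher and 8 lower in TKO against WT at D8, with medians of 1.80 and 2.48. Of 15 genes of the core pluripotency network, 13 rose and 0 fell at TKO D8 against TKO D6, and their summed level was 3520.6 to 3697.4 CPM at TKO D8 and 1509.6 to 1561.0 CPM at WT D8, with none at 0. Pou5f1 (Oct4) had 528 ± 35.5 CPM at TKO D8 and 14.3 ± 8.12 CPM at WT D8 (mean ± SD, n = 2). Of 20 naive genes, 16 were higher and 2 lower at TKO D8 against TKO D6, and they summed to 732.9 to 740.5 CPM at TKO D8 and 219.3 to 235 CPM at WT D8. At WT D8 against WT D6, 20 formative genes were higher and 8 lower, 5 core genes were higher and 7 lower, and 9 naive genes were higher and 1 lower. In the interaction, 21 formative genes were higher and 3 lower, and 13 core genes were higher and 0 lower. For the naive genes it was 5 and 5, beside 25.5% and 24.4% of all genes tested. At D2, where the 53 genes peaked, 21 of the 36 formative genes were higher and 6 lower at TKO D2 against TKO D0. Of the 20 naive genes, 19 were lower in that comparison, beside 26.9% of all genes tested.

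Lists of markers of other cells were also compared between the D8 groups, and their part in the results on the 53 genes was not tested. Over all genes tested, 35.8% were higher and 31.8% lower in TKO against WT at D8. Of 20 neuronal genes, 1 was higher and 19 were lower in TKO against WT at D8, with sums of 1662.2 to 1679.6 CPM in TKO and 6978.9 to 7110.1 CPM in WT. Of 24 neural progenitor genes, 1 was higher and 21 were lower, with sums of 2219.8 to 2225.0 CPM in TKO and 6235.1 to 6351.3 CPM in WT. Of 17 trophoblast genes tested, 12 were higher and 0 lower, with sums of 436.2 to 445.8 CPM in TKO and 268.6 to 277 CPM in WT. Of 24 endoderm genes, 9 were higher and 4 lower, with endoderm sums of 3080.1 to 4427.4 CPM in TKO and 1814.1 to 2537.4 CPM in WT. No gene of these lists was at 0 in either D8 group. Of 14 neural crest genes, 4 were higher and 5 lower in TKO against WT at D8, with a median of -0.07. They summed to 120.1 to 122.7 CPM in TKO and 275.6 to 277.4 CPM in WT. Of 22 primitive streak and mesoderm genes tested, 9 were higher and 5 lower, with a median of 0.84. The summed level of that list was nonetheless lower in TKO, at 84.94 to 107.8 CPM against 180.2 to 192.6 CPM in WT. In it, Msgn1 had no count at TKO D8 and Meox1 none at WT D8. A list of 23 neuronal differentiation factors, written after the values were seen, holds Insm1, Hes6, Gadd45g, Bcl11a, Dpf1 and Zfhx3 of the 53 genes. Of the 23, 18 rose at WT D8 against WT D6 and 0 fell, with a median of 0.70. At TKO D8 against TKO D6, 4 rose and 17 fell, with a median of -0.64. The shares of all genes tested that rose and fell were 26.6% and 30.4% in WT, and 25.5% and 24.5% in TKO. The 4 of the list that rose in TKO were Bcl11a, Dpf1, Zfhx3 and Hes6 (log2 fold changes 3.22, 0.57, 0.45 and 0.41), all among the 53 genes. As the list was written with the values known, this overlap is not independent of the choice of genes. Insm1 fell, and Gadd45g did not pass (-0.05).

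Ccno, Myb and Trp73, 3 of the 53 genes, act in the making of multiciliated cells. They belong to a multiciliation list of 19, also written after the values were seen. In the same list, Foxj1, the main factor of motile cilia, had 1.55 ± 0.202 CPM at TKO D2 and 1.61 ± 0.115 CPM at WT D2, and Mcidas, which starts the programme, had 0.878 ± 0.117 CPM at TKO D2 and 0.549 ± 0.0777 CPM at WT D2 (mean ± SD, n = 2). Of the 18 genes tested, 10 were higher and 2 lower at TKO D2 against TKO D0, beside 26.6% and 26.9% of all genes tested, with a median of 0.22. Ccno, Myb and Trp73 are among the 10, so this count is not independent of the choice of genes.

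The reads of 5 genes are shared in part with others, with at least 10% of their 31-base sequences present elsewhere: Platr17 at 32.6%, and Sssca1, Snrpn, Gng3 and Sned1 as given above. Their values are uncertain to that extent. In the annotation of GRCm38, Pim2 (ENSMUSG00000031155.16) lies on chromosome X from 7878262 to 7883432, Vrtn (ENSMUSG00000071235.12) on chromosome 12 from 84641019 to 84651455 and Insm1 (ENSMUSG00000068154.5) on chromosome 2 from 146221921 to 146225020. The 53 genes lie on 19 chromosomes, with 7 on chromosome 2, 6 on chromosome 1 and 3 on chromosome X.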

How the data were processed

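Stranded libraries of polyadenylated RNA (TruSeq, per the labels' protocols) were made from 20 samples. The authors' deposited tables hold 119414 transcripts each. Their estimated counts, assigned by kallisto (version not given in the sources used here) with Trim Galore 0.6.2 on GRCm38 per the submitters' processing notes, are not scaled to depth, and the deposited TPM values are scaled to length and depth. Whether counting used strand is not given in the sources used here. Transcripts were summed per gene of GENCODE M21 (2686 unmatched, 0.943% to 1.1% of counts, left out) and rounded. Library totals ran from 26015282 to 38074768; with 2 libraries per group, replicate number limits precision.

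All 20 libraries were fitted in edgeR 4.0.16 (quasi-likelihood test, TMM factors 0.911 to 1.151, filterByExpr), with 18555 genes tested, 10 residual degrees of freedom and a biological coefficient of variation of 0.0689 in common. All 53 genes passed the filter. Fold changes are TMM-scaled and CPM are not, so that the fitted folds of TKO over WT at D8 (median 5.53) are higher than the CPM ratios (median 4.87). Errors beside fold changes are SE. Genes were called at a Benjamini-Hochberg adjusted p under 0.05 over all genes tested, after the fit was checked on simulated data. The replicates are biological per the labels.

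The 53 genes, the 23 gene lists, the roles and the tests were chosen with earlier results of these data known, and 3 lists were written after values were seen. Genes named are the 12 with the highest TPM at WT D2, list members, the 5 highest and 5 lowest per comparison among those passing with 5 CPM and libraries apart (predicted genes were counted and not named), the extremes of TKO D2 over WT D2, those at the rule's limits and those above WT D2 in TKO; others named by role or trait were chosen after their values were seen. Values of 2 of the 53 genes are not reported here singly or drawn, but enter the counts and sums. Genes sharing at least 10% of 31-mers are named as uncertain. Alternatives were RLE scaling, no filter, the replicate block, DESeq2 1.42.0, other thresholds, protein-coding genes alone and leaving out each library. RefSeq promoter tables (GRCm38.p6) gave the sequences. R 4.3.3 was used.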

Additional observations from a re-analysis of the deposited data

Results flagged for a closer look

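The D8 over D6 change differed between genotypes, by the interaction test of the edgeR quasi-likelihood fit, in 45 of the 53 genes. It was more positive in TKO for 35 and less positive or negative for 10, beside 25.5% and 24.4% of all genes tested. The 5 highest differences (TKO minus WT, log2) among genes of at least 5 CPM were 4.16 for Wt1, 3.98 for Crocc2, 3.90 for Map7d3, 3.48 for Myrf and 3.0 for Capn3. Of these, Map7d3 and Myrf rose in TKO and fell in WT, with log2 fold changes of 2.17 and 1.58 in TKO and -1.73 and -1.90 in WT. Crocc2 and Capn3 rose in TKO (3.86 and 2.96) and were below 1 CPM in every WT library of D6 and D8. The 5 lowest differences were -2.43 for Bcl11a, -1.70 for Insm1, -1.53 for Dpf1, -1.33 for Wdr47 and -1.24 for Gng3. Bcl11a, Dpf1 and Gng3 rose in both genotypes, by 3.22, 0.57 and 1.05 in TKO and 5.65, 2.10 and 2.29 in WT. Insm1 fell in TKO (-0.83) and rose in WT (0.88), and Wdr47 did not pass in TKO (-0.13, adjusted p = 0.362) and rose in WT (1.20).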

How the results depend on the processing

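Of the 55 values of named genes with a test, 527 repeats kept their direction and call, 8 kept the direction and lost the call, and 0 turned. All 8 losses came from leaving out a library: Gadd45g and Sssca1 at D6, Acsl5 at WT D8 against WT D6, and Wt1 in the interaction. With RLE scaling, no filter, DESeq2 or protein-coding genes alone, each count of called genes stayed within 1.5 times its value. With a change of at least 2-fold, 1 gene was lower in TKO against WT at D6 and 4 at D8, 15 were higher and 3 lower at WT D8 against WT D6, 0 were lower at TKO D8 against TKO D6, and 5 had a negative interaction. At an adjusted p under 0.01, 2 genes were lower at D6. Leaving out each library in turn gave 2 to 3 genes lower in TKO against WT at D6 and 1 to 2 lower at TKO D8 against TKO D6, the extremes coming without TKO D6 replicate 1. The rule found 86 genes at a ratio of 2 and 23 at a ratio of 4, and at a ratio of 4, 14 of the 53 met it in TKO. It found 61 genes with TMM-scaled CPM, 46 with TPM, 78 from 10 CPM and 37 from 40 CPM. Without 1 library, added after the data were seen, it found 51 to 56 genes in WT, and 34 to 36 of the 53 met it in TKO. Same-numbered replicates did not deviate together (correlations of -0.0144 to 0.0521), so they share only a number. With the replicate block, 50 genes were higher and 1 lower at TKO D8 against TKO D6, 42 and 8 in TKO against WT at D8, and 35 and 10 in the interaction, the counts found with no block. Levels below 1 CPM rest on few counts, and 2 libraries per group limit every test.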

Other observations

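Applied to TKO libraries in place of WT, the rule of at least 20 CPM at D2 and 2.5 times D0 and D4 was met by 64 protein-coding genes, 25 of which did not meet it in WT. Among these 25, chosen here after their values were seen, Ryr3, a calcium channel of the endoplasmic reticulum, had means of 18.8, 70.6 and 3.20 CPM at TKO D0, D2 and D4, and 1.74, 15.2 and 1.36 CPM at WT D0, D2 and D4. Nefh, a neurofilament subunit, had 39.8, 178.7 and 64.8 CPM at TKO D0, D2 and D4, and 25.4, 55.5 and 26.1 CPM in WT. Piwil2, a germline Argonaute protein, had 20.9, 62.0 and 18.2 CPM in TKO, and 24.0, 22.5 and 5.52 CPM in WT. Snurf, which shares its locus with Snrpn, had 6.10, 24.1 and 6.26 CPM in TKO, and 3.65, 12.5 and 4.02 CPM in WT. Lrrk2, Tnfsf11, Cilp2 and Mt2, just outside the limits in WT, were also among the 25. No test was made, since the TKO libraries chose these genes.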
